A study of Homo sapiens with 22 samples.

Results

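The transcripts of the mitochondrial genome were followed in Caco-2 cells exposed to faecal water. They were taken as every gene of the deposited count table whose symbol starts with MT-, which gave 37 of 61487 genes: 13 mRNAs, 2 rRNAs and 22 tRNAs, the whole annotated gene set of mitochondrial DNA. Caco-2 is an established cell line from a human colorectal adenocarcinoma that is widely used to stand for gut epithelium. The labels give it as undifferentiated and wildtype. The cells were grown for 48 h and then exposed for 48 h to medium of which 10% was replaced by one of 4 fluids. These were PBS as vehicle (n = 4), FWctl (n = 7, faecal water of mice without antibiotics), FWatb (n = 7, faecal water of the same mice under antibiotics) and ATB (n = 4, a cocktail of neomycin at 1 g/L, vancomycin at 0.5 g/L and meropenem at 0.25 g/L). All cultures also carried the antibiotic-antimycotic of the growth medium. The labels tie no library to a mouse, and they do not say whether replicates of PBS and ATB were separate cultures. The p-values thus measure the spread between these samples, which for PBS and ATB may be technical.

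Mitochondrial DNA is transcribed from both strands into long precursors by the RNA polymerase POLRMT together with TFAM, the packaging and promoter-binding protein, and TFB2M, the factor that opens the promoter. The precursors are cut largely at the tRNAs that lie between the other genes. The resulting mRNAs code for core subunits of respiratory complexes I, III and IV and of ATP synthase, the rRNAs build the mitochondrial ribosome, and LRPPRC with SLIRP binds and stabilises the mRNAs. In the reference, 28 members lay on the plus strand and 9 on the minus strand, the latter being MT-ND6 and 8 tRNAs.

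A filter on low counts (a count above 5 in at least 3 of 21 samples) kept 21 members: all 13 mRNAs, both rRNAs and 6 tRNAs. The other 16 tRNAs never exceeded a count of 4 in any library. The tRNA genes were 59 to 75 bases long, shorter than the 150-base reads, and 98.6% of all tRNA counts fell on MT-TC, MT-TP and MT-TN, which carry cysteine, proline and asparagine. All 3 lie on the minus strand, and the sources used here do not say whether reads were counted by strand, so reads of these tRNAs and of plus-strand precursors that run through the same bases cannot be told apart. Their genes are shown because 2 of them moved unlike the mRNAs (see the values further on), with the anticodon in capitals. The sequences come from GRCh38, written 5′ to 3′ on the minus strand, at chrM:5657-5729, chrM:5761-5826 and chrM:15956-16023.
MT-TN: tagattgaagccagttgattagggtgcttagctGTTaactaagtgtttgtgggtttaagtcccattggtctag
MT-TC: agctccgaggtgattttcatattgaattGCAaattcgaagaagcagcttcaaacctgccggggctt
MT-TP: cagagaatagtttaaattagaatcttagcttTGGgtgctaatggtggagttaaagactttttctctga

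Neighbouring genes also share bases. MT-ATP8, a subunit of ATP synthase, is 207 bases long, and its last 46 bases are also the first of MT-ATP6, another subunit of the same enzyme. It is shown because it was the mRNA with the fewest counts, 7 to 44 a library, and how reads over the shared bases (capitals) were assigned is not given in the sources used here. The gene lies on the plus strand at chrM:8366-8572 of GRCh38.
MT-ATP8: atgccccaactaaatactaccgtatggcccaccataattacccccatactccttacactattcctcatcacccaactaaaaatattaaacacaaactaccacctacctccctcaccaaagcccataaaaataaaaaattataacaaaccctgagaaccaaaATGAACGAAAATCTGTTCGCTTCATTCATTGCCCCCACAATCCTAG

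Copies of mitochondrial DNA in the nuclear genome can take or lose reads. Of all 150-base windows of each gene in GRCh38, 15.7% of those of MT-ND2, 14.5% of MT-CO1, 10.4% of MT-RNR1 and 1.12% of MT-ND1 had an identical stretch outside chrM, and those of the other 11 mRNAs and rRNAs had none. The 7 annotated copies of a single insertion on chromosome 1 were counted at low levels. Levels below are normalized counts scaled to 1000000 per library (CPM). In PBS, MTATP6P1 lay at 12.3 to 22.3 CPM and MTCO1P12 at 7.96 to 10.7, and MTND1P23, MTND2P28, MTCO2P12, MTATP8P1 and MTCO3P12 at or below 1.03.

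Total counts ranged from 7118302 to 18726967 per library. The libraries fell into a set of 8 with under 0.5% of counts on ribosomal DNA genes (PBS replicates 3 and 4, FWctl 1, 2 and 3, ATB 1, 3 and 4) and a set of 14 above it, which held every FWatb library. For FWatb, the library set and the exposure thus cannot be told apart against low-rDNA libraries, and values within a set are given beside the pooled ones. The sets also differed in depth, with 15604065 to 18726967 counts in the low-rDNA libraries and 7118302 to 12248577 in the high-rDNA ones. Depth and library set thus cannot be told apart either. FWctl replicate 1, taken as the outlier that the methods leave out, is shown apart and is not in any mean or test unless said. Epithelial markers were present (CDH1 at 385 to 532 and EPCAM at 520 to 621 CPM of the unscaled library total, with VIL1, CDX2, KRT8 and KRT18 also detected and KRT20, a marker of differentiated cells, at 3.76 or less). Of 6 markers of other cell types, PTPRC of leukocytes and CDH5 of endothelium never exceeded counts of 2 and 3. PECAM1, also of endothelium, lay at 1.61 to 8.04 CPM, COL1A1 of fibroblasts at 0.402 to 10.8, COL3A1 at up to 2.01 and ALB of liver at 4.53 to 109.

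Mitochondrial RNA took a large part of the libraries, nearly all of it rRNA. In PBS the 2 rRNAs held 31.9% ± 1.49 of all counts (SD, n = 4), the 13 mRNAs 0.784% ± 0.117 and the tRNAs 0.0286% ± 0.00121. MT-RNR2, the large-subunit rRNA, alone held 29.5% ± 1.47. The libraries were made with ribosomal RNA depletion, and whether its probes covered the mitochondrial rRNAs is not given in the sources used here, so the rRNA level is what remained after that step. The 95% Wilson intervals of these shares reached at most 0.00652 percentage points to either side for mRNAs, 0.0331 for rRNAs and 0.00147 for tRNAs in any library, which covers counting error only.

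The mRNAs covered a wide range of levels per gene length. On the scale of normalized CPM per kilobase of gene in PBS, MT-CO3 and MT-CO1, core subunits of complex IV, led with 4304 ± 388 and 2088 ± 286 (SD, n = 4). MT-CO2, the other core subunit of complex IV, followed with 767 ± 139. These 3 did not overlap each other or any other mRNA over the 4 libraries. Below them came the complex I subunits MT-ND3 (261 ± 38.3) and MT-ND4L (185 ± 60.1), then MT-ATP6 (158 ± 46.2), MT-ND4 (152 ± 50.002), MT-ND1 (102 ± 28.0) and MT-CYB of complex III (85.9 ± 18.5), each overlapping the next in the order. MT-ND5 (39.4 ± 11.5) and MT-ND2 (31.8 ± 9.65) overlapped each other and lay below all of these. The lowest levels were those of MT-ND6, the only mRNA on the minus strand (9.50 ± 2.42), and MT-ATP8 (8.94 ± 4.01). The rRNAs stood at 24789 ± 1320 for MT-RNR1 and 191263 ± 15422 for MT-RNR2 on the same scale. MT-CO1 and MT-CO3 together made up 83.8% ± 1.85 of mitochondrial mRNA counts in PBS, so the summed mRNA share mostly follows them.

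Faecal water of untreated mice went with less mitochondrial mRNA. The mRNA share was 0.936%, 0.815%, 0.678% and 0.706% in the 4 PBS libraries, and 0.416% at lowest, 0.488% at the median and 0.505% at highest in the 6 FWctl libraries. No FWctl library reached the lowest PBS library, and the mean share was 0.6004 times that of PBS. FWctl replicate 1 lay between the groups at 0.663%. The rRNA share was 0.888 times that of PBS with overlapping groups (26.3% to 30.1% in FWctl, 29.7% to 32.9% in PBS), and the tRNA share was 1.28 times that of PBS without overlap (0.0300% to 0.0406% against 0.0275% to 0.0297%). The 3 kinds of RNA from the same genome thus stood in different proportions, with 60.3 ± 3.21 rRNA counts per mRNA count in FWctl (SD, n = 6) and 41.3 ± 5.89 in PBS (n = 4). In bulk RNA of this cell line, a smaller share in every cell and a much smaller share in some of the cells cannot be told apart. The shares are described and not tested, since they sum genes chosen as a group.

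**Figure D1:**
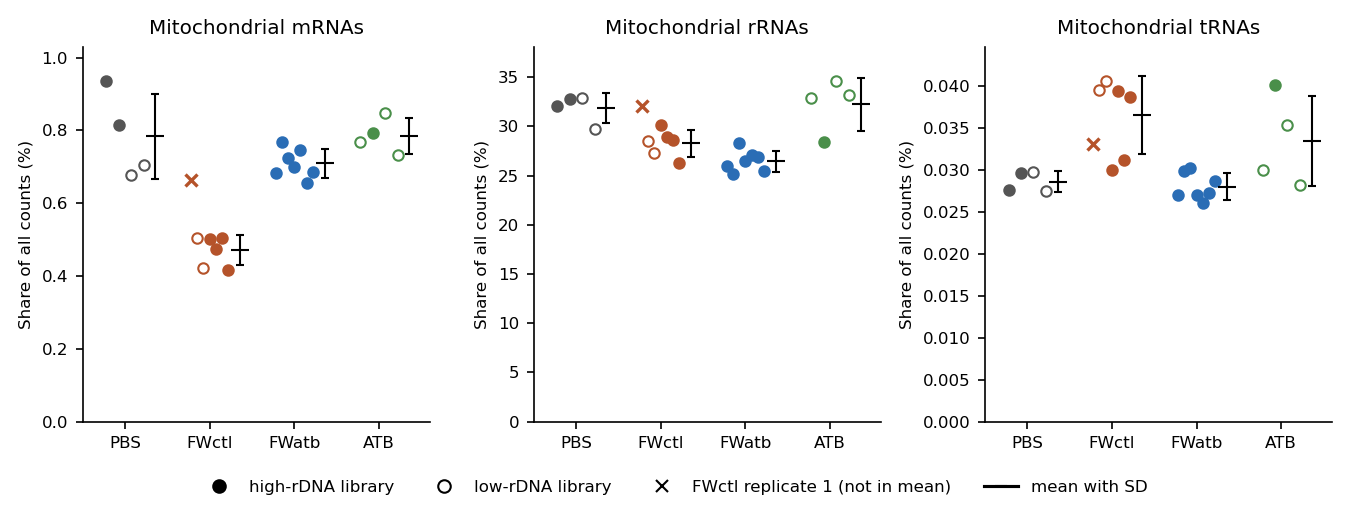
Share of all counts (%) on mitochondrial mRNAs, rRNAs and tRNAs in each library of the 4 groups, with filled circles for high-rDNA and open circles for low-rDNA libraries, a cross for FWctl replicate 1 and bars for the mean and SD without it. The 6 FWctl libraries lie at 0.416% to 0.505% for mRNAs, below every PBS, FWatb and ATB library, and all 6 lie above the highest PBS library for tRNAs, at 0.0300% to 0.0406% against 0.0297%. The gap at 0.0300% against 0.0297% is within counting error.

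Gene by gene, 10 of the 13 mRNAs were lower under FWctl than under PBS (edgeR quasi-likelihood test, Benjamini-Hochberg adjusted over 20373 genes), where 22.1% of all genes tested were lower and 24.3% were higher. No mRNA was higher, and all 13 log2 fold changes were below 0. The median log2 fold change of the 13 was -0.65, against 0.02 over all genes. With FWctl replicate 1 in the fit, 10 mRNAs were again lower, with a median of -0.67, where 42.0% of all genes were called in either direction.

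All 3 complex IV mRNAs fell. MT-CO1 stood at 3690, 3495, 2791 and 2900 normalized CPM in the PBS libraries, and at 1565, 1801 and 1988 (lowest, median, highest) in FWctl. The groups did not overlap, and the log2 fold change was -0.86 ± 0.10 (SE, adjusted p = 6.8e-10 by edgeR). MT-CO2 stood at 617, 594, 460 and 427 in PBS and at 223, 289 and 309 in FWctl, again without overlap (-0.89 ± 0.10, adjusted p = 2.7e-10 by edgeR). MT-CO3 fell from 3758, 3369, 3357 and 3014 to 1856, 2223 and 2729 (-0.56 ± 0.10, adjusted p = 9.2e-06 by edgeR), and FWctl replicate 1 stood at 3646, inside the PBS range.

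Of the complex I mRNAs, MT-ND5 had the largest fold change, and MT-ND1 and MT-ND3 did not pass the test. MT-ND5 stood at 96.5, 80.3, 57.1 and 51.9 in PBS and at 29.9, 40.04 and 49.0 in FWctl, without overlap (-0.89 ± 0.16, adjusted p = 7.5e-06 by edgeR). MT-ND6, read from the opposite strand to the other mRNAs, stood at 6.56, 4.76, 5.15 and 3.47 in PBS and at 1.96, 3.12 and 4.19 in FWctl (-0.77 ± 0.20, adjusted p = 0.0017 by edgeR), with overlapping groups. MT-ND4L (-0.74 ± 0.19), MT-ND4 (-0.62 ± 0.18) and MT-ND2 (-0.61 ± 0.16) also fell, with adjusted p of 0.001, 0.0041 and 0.0018 by edgeR, and all 3 overlapped PBS. MT-ND3 differed by -0.11 ± 0.11 (76.6 to 103 in PBS, 64.4 to 97.1 in FWctl) and MT-ND1 by -0.21 ± 0.14 (69.8 to 128 in PBS, 60.1 to 95.7 in FWctl).

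The mRNAs of complex III and ATP synthase moved the same way. MT-CYB, cytochrome b, stood at 123, 107, 78.5 and 83.0 in PBS and at 45.8, 67.5 and 72.6 in FWctl, without overlap (-0.65 ± 0.13, adjusted p = 5.0e-05 by edgeR). MT-ATP6 stood at 141, 128, 82.0 and 79.3 in PBS and at 37.8, 56.9 and 73.2 in FWctl, without overlap (-0.90 ± 0.15, adjusted p = 2.1e-06 by edgeR). The short MT-ATP8 gave -0.48 ± 0.31 and did not pass the test at its low counts.

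**Figure D2:**
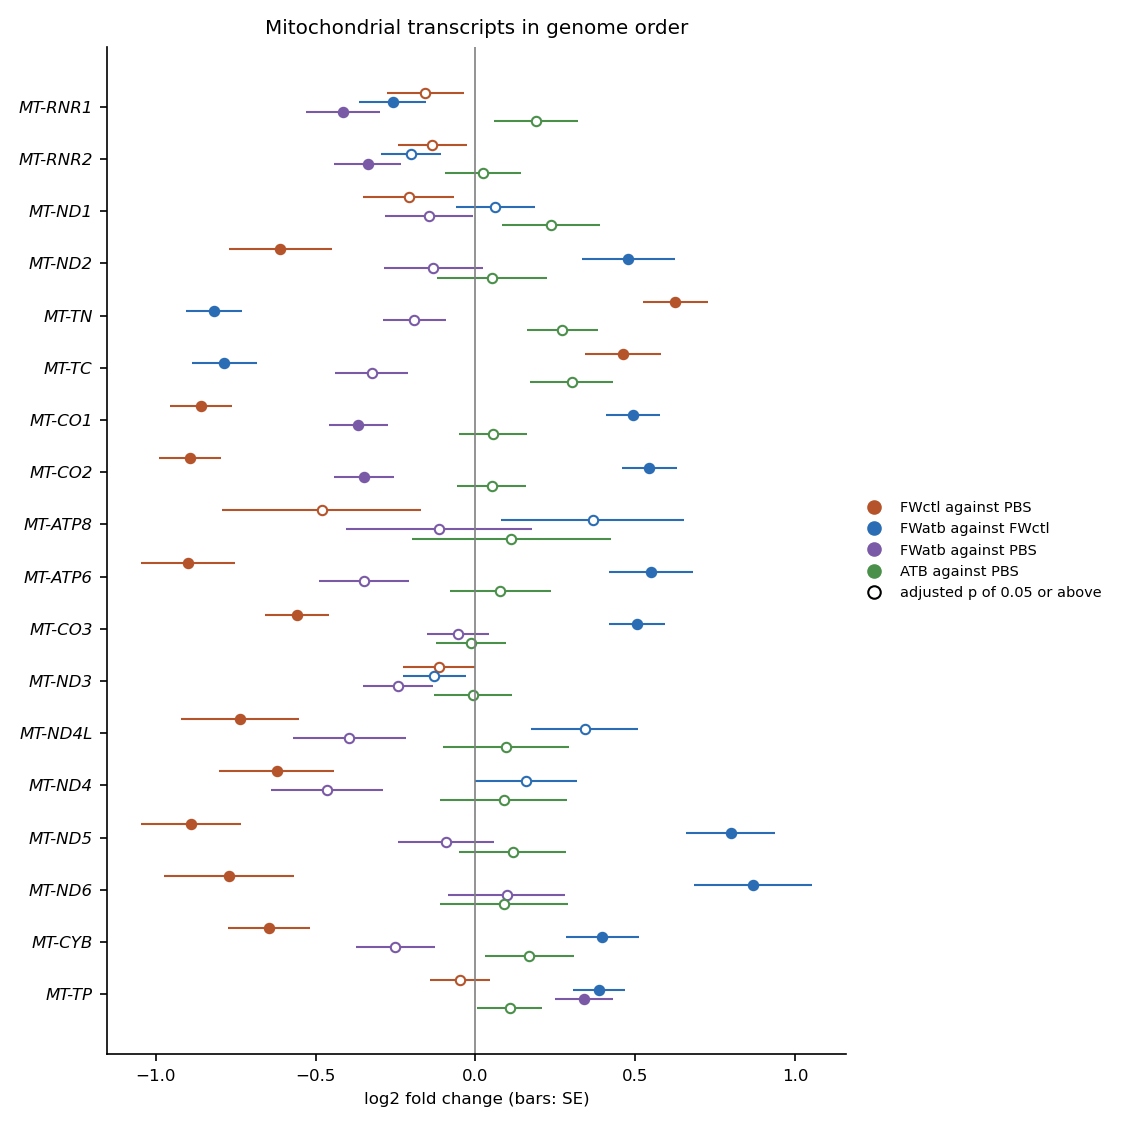
Log2 fold change of the 15 mRNAs and rRNAs and 3 tRNAs, in the order of their genes, with bars for the SE and open circles where the adjusted p was 0.05 or above. Under FWctl against PBS the mRNAs lie left of 0 (MT-CO1 at -0.86) and MT-TN and MT-TC right of it (0.63 and 0.46), and under FWatb against FWctl 12 of the 13 mRNAs lie right of 0.

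The rRNAs did not pass the test under FWctl. MT-RNR2 differed from PBS by -0.14 ± 0.11 and MT-RNR1, the small-subunit rRNA, by -0.16 ± 0.12, with overlapping groups for both. In the same libraries and on the same scaling, MT-CO3, the called mRNA with the smallest change, had a fold of 0.679, and MT-RNR2 and MT-RNR1 had folds of 0.911 and 0.897.

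Of the 6 tRNAs tested, MT-TN and MT-TC rose and the other 4 did not pass. Of all genes tested, 24.3% were higher and 22.1% lower, so the count itself says little about the tRNAs. MT-TN stood at 52.0, 55.6, 68.2 and 56.5 normalized CPM in PBS and at 74.0, 92.15 and 105.5 in FWctl, and it rose by 0.63 ± 0.10 without overlap (adjusted p = 2.1e-06 by edgeR). MT-TC stood at 139, 176, 163 and 145 in PBS and at 158, 225 and 258 in FWctl, and it rose by 0.46 ± 0.12 (adjusted p = 0.0013 by edgeR) with overlapping groups. MT-TP, at the far end of the genome, did not pass (-0.05 ± 0.09). MT-TL1, MT-TM and MT-TY had counts of at most 55 a library and did not pass the test in any comparison.

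**Figure D3:**
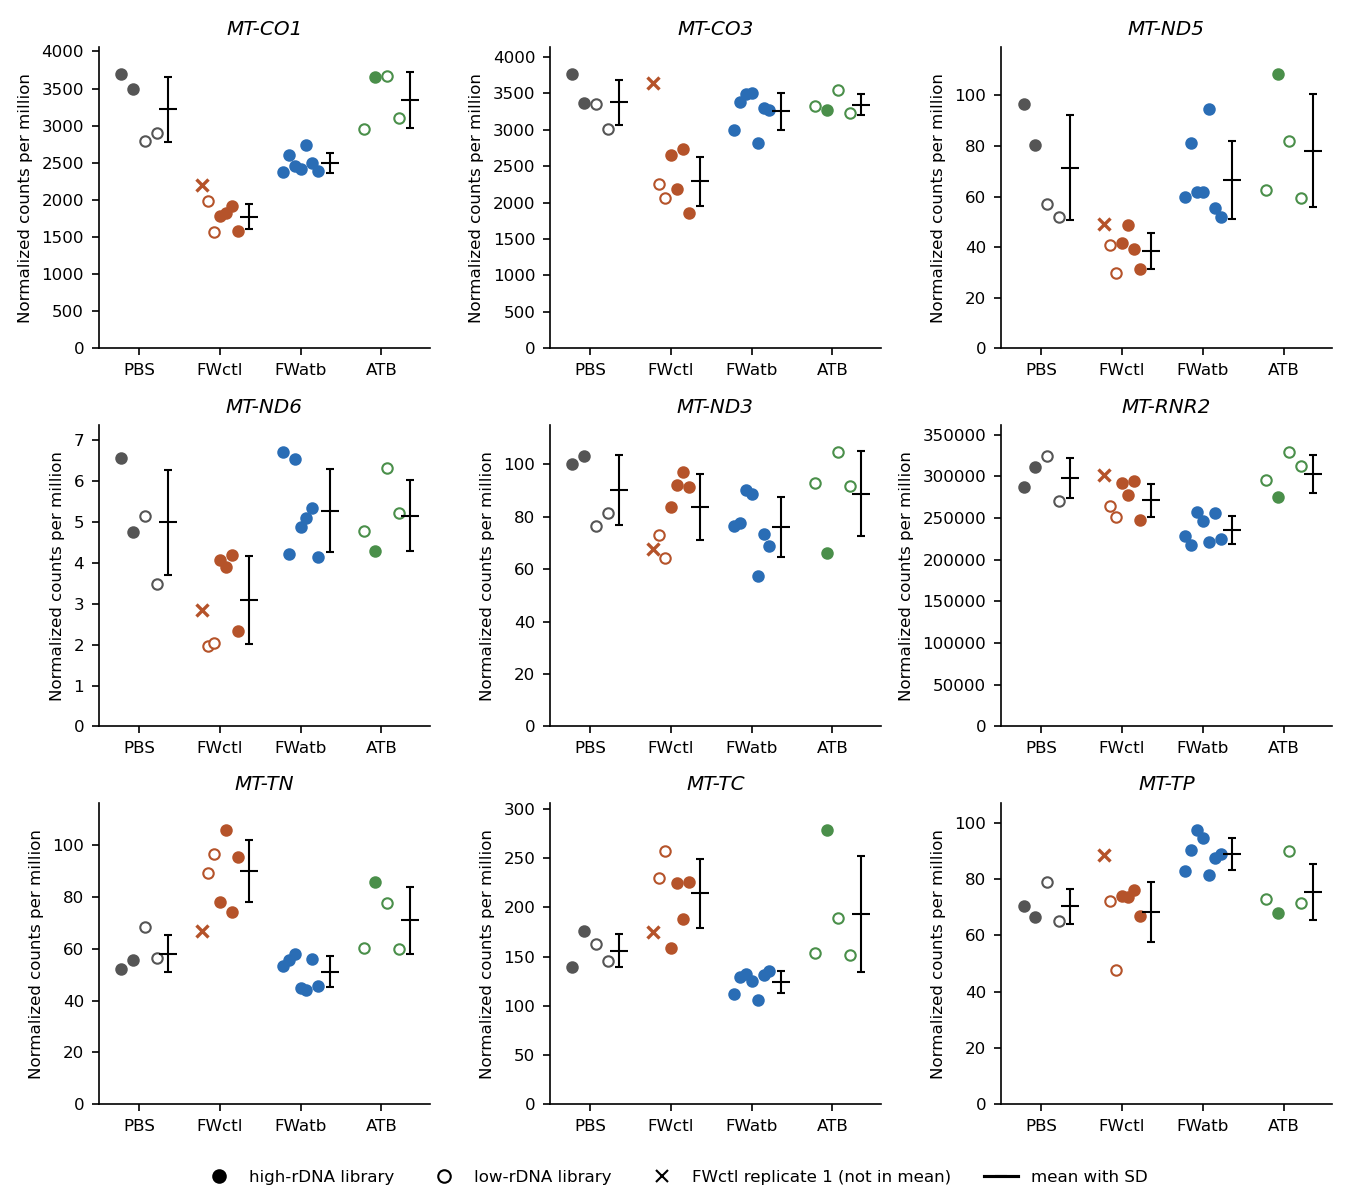
Normalized CPM of 5 mRNAs, MT-RNR2 and 3 tRNAs in each library, with filled circles for high-rDNA and open circles for low-rDNA libraries, a cross for FWctl replicate 1 and bars for the mean and SD without it. MT-CO1 in FWctl (1565 to 1988) lies below all other groups, and MT-TN in FWctl (74.0 to 105.5) lies above PBS and FWatb.

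The fall of the mRNAs was present within each library set. With the sets as separate strata (4 PBS and 6 FWctl libraries), all 13 mRNAs had log2 fold changes below 0 in the low-rDNA libraries (median -0.55) and in the high-rDNA libraries (median -0.87). MT-CO1 differed by -0.70 in the low-rDNA and -1.03 in the high-rDNA set, and MT-CO3 by -0.58 and -0.61. For 11 of the 13 the value was more negative in the high-rDNA set. The exceptions were MT-ND6, which differed by -1.12 and -0.68, and MT-ND3, which differed by -0.23 and -0.17. MT-TN differed by 0.55 and 0.70, and MT-TC by 0.64 and 0.33. Fitted on one set alone, edgeR called 10 mRNAs lower in the low-rDNA libraries and 11 in the high-rDNA ones. Of all genes, 36.9% and 34.7% were called in either direction in these 2 fits. MT-ND2 was not called in the low-rDNA libraries alone (adjusted p = 0.0551).

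Whether the response to FWctl itself differed between the sets was tested as an interaction over the 10 libraries. None of the 21 members passed (edgeR, where 0.0196% of all genes did), and 5 had an unadjusted p under 0.05. The share of all genes under that unadjusted threshold is not given here. The 5 were MT-ND1, MT-ND2, MT-ND4L, MT-ND4 and MT-ND5, named after their values were seen, and each was lower by more in the high-rDNA set. Within PBS alone, all 13 mRNAs were higher in the 2 high-rDNA libraries than in the 2 low-rDNA ones, by 0.66 on the log2 scale at the median. The test called 4 of them: MT-ND2 (0.74), MT-ATP6 (0.74), MT-ND4 (0.82) and MT-ND5 (0.70). The share of all genes called in that test is not given here, so these 4 calls cannot be set against it. These vehicle levels are the base of the pooled values, and the part of the library set in them was not tested beyond the fits above.

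**Figure D4:**
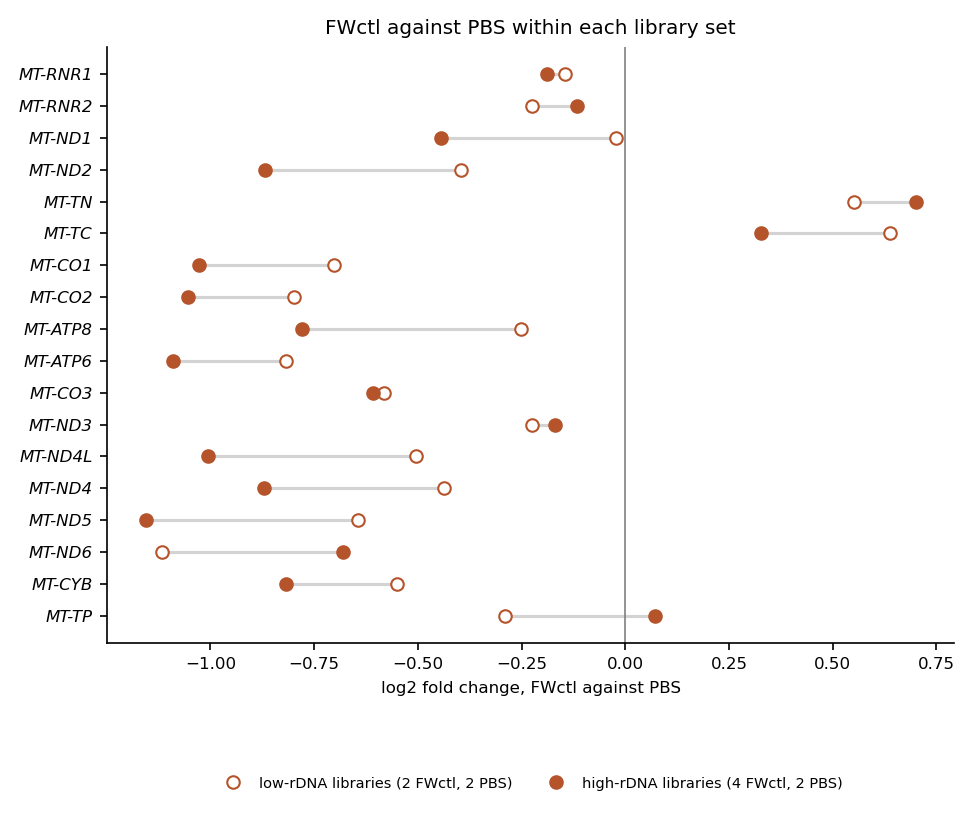
Log2 fold change of FWctl against PBS of 15 mRNAs and rRNAs and 3 tRNAs, in gene order, in low-rDNA libraries (open circles) and high-rDNA libraries (filled circles), joined by a line per gene. All 13 mRNAs lie below 0 in both sets, with medians of -0.55 and -0.87, and MT-TN and MT-TC lie above 0 in both.

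Under faecal water of the same mice treated with antibiotics, the mRNAs were higher than under FWctl. The mRNA share was 0.657% at lowest, 0.700% at the median and 0.769% at highest in the 7 FWatb libraries, above every one of the 6 FWctl libraries, and the mean was 1.51 times that of FWctl. FWctl and FWatb samples share replicate numbers. The mRNA share was higher under FWatb in 6 of the 6 same-numbered pairs, which any pairing gives where groups do not overlap. The tRNA share was lower under FWatb in all 6 of these pairs and 0.766 times that of FWctl on average, with overlapping groups, and the rRNA share was 0.936 times, also with overlap. FWctl replicate 1, at 0.663% for mRNA, lay inside the FWatb range.

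By gene, 8 of 13 mRNAs were higher under FWatb than under FWctl, where 23.4% of all genes tested were higher and 25.4% lower, and the median log2 fold change of the 13 was 0.48 against -0.01 over all genes. None passed the added threshold of an absolute log2 fold change above 1 that the study's methods set for this comparison, which 6.12% of all genes passed upwards and 6.6% downwards. With the library set as a covariate, 7 mRNAs were higher, the median was 0.27 and 3 of the 13 log2 fold changes were below 0. That fit called 46.2% of all genes in either direction. The comparison shares its FWctl libraries with the one against PBS, so the 2 sets of values are not independent.

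Subunit mRNAs of complex IV, complex III and ATP synthase were among those that rose. MT-CO1 stood at 2377, 2453 and 2744 normalized CPM in FWatb (lowest, median, highest) and rose by 0.49 ± 0.08 (adjusted p = 4.5e-06 by edgeR) without overlap. MT-CO2 (361, 402 and 454) rose by 0.54 ± 0.09 and MT-CO3 (2811, 3304 and 3501) by 0.51 ± 0.09, both without overlap (adjusted p = 8.1e-07 and 4.9e-06 by edgeR). Without overlap, all 3 were higher under FWatb in any pairing of the libraries, the 6 same-numbered pairs included. MT-ATP6 rose by 0.55 ± 0.13 and MT-CYB by 0.40 ± 0.11 (adjusted p = 0.00053 and 0.0035 by edgeR).

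The complex I mRNAs split. MT-ND5 rose by 0.80 ± 0.14 without overlap (52.1, 61.6 and 94.6 in FWatb, adjusted p = 6.3e-06 by edgeR), and MT-ND6 by 0.87 ± 0.18 (4.15, 5.11 and 6.70, adjusted p = 0.00011 by edgeR). MT-ND6, whose groups overlapped, was higher in 6 of 6 same-numbered pairs. For MT-ND5 the same count follows from the lack of overlap. MT-ND2 rose by 0.48 ± 0.15, but it was not called with the library set as a covariate (0.27, adjusted p = 0.0698 by edgeR). MT-ND1 (0.06 ± 0.12), MT-ND3 (-0.13 ± 0.10), MT-ND4 (0.16 ± 0.16) and MT-ND4L (0.34 ± 0.17) did not pass. Within the high-rDNA libraries (4 FWctl and 7 FWatb), 8 mRNAs were again higher, with a median of 0.41, and MT-ND3 was lower (-0.23, adjusted p = 0.0287 by edgeR). That fit called 42.7% of all genes in either direction.

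Of the 6 tRNAs tested, 2 fell and 1 rose under FWatb against FWctl. These counts are near the shares of all genes, of which 25.4% were lower and 23.4% higher. MT-TN stood at 44.02, 53.3 and 57.7 in FWatb and fell by 0.82 ± 0.09 on the log2 scale against FWctl (adjusted p = 2.3e-10 by edgeR). MT-TC stood at 105.5, 129 and 135 and fell by 0.79 ± 0.10 (adjusted p = 1.7e-08 by edgeR). Neither overlapped FWctl, so both were lower in 6 of 6 same-numbered pairs, as in any other pairing. MT-TP stood at 81.4, 89.1 and 97.3 against 47.8, 72.8 and 76.0 in FWctl. It rose by 0.39 ± 0.08 without overlap, and thus in 6 of 6 same-numbered pairs (adjusted p = 0.00011 by edgeR). Within the high-rDNA libraries the log2 fold changes were -0.76 for MT-TN, -0.65 for MT-TC and 0.32 for MT-TP, and all 3 passed. MT-RNR1 was lower by 0.26 ± 0.10 on the log2 scale (adjusted p = 0.036 by edgeR), a call lost in 6 of 11 alternative fits and in 15 of the 21 fits that left out 1 library. The 6 libraries whose removal kept it were PBS 4, FWctl 8, FWatb 6 and 7 and ATB 1 and 2. MT-RNR2 did not pass (-0.20 ± 0.09).

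Against PBS, FWatb left a smaller difference that depended on the vehicle libraries. The mRNA share of FWatb was 0.905 times that of PBS, with overlapping groups, and of the 13 mRNAs 2 were lower and none higher (3.95% of all genes were lower and 6.04% higher), with a median log2 fold change of -0.24. MT-CO1 had a log2 fold change of -0.37 ± 0.09 without overlap and MT-CO2 by -0.35 ± 0.09 (adjusted p = 0.0076 and 0.011 by edgeR). Neither was called without PBS replicate 1 or without PBS replicate 2, the 2 high-rDNA vehicle libraries. Compared with those 2 libraries alone, 9 mRNAs were lower and the median was -0.49, where 5.31% of all genes were called in either direction. All FWatb libraries were high-rDNA, so the comparison could not be made in the low-rDNA set. The other 11 mRNAs did not pass, with log2 fold changes from 0.10 ± 0.18 for MT-ND6 to -0.46 ± 0.17 for MT-ND4.

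The rRNAs were lowest under FWatb. The rRNA share was 25.2% to 28.3%, below every PBS library, and 0.831 times that of PBS on average. MT-RNR1 stood at 14456, 18159 and 22340 normalized CPM in FWatb and at 22388, 25094, 24285 and 22827 in PBS, a difference of -0.42 ± 0.12 (adjusted p = 0.015 by edgeR). MT-RNR2 stood at 217417, 227943 and 256710 in FWatb and at 287853, 310937, 323999 and 269927 in PBS, and it differed by -0.34 ± 0.10 (adjusted p = 0.031 by edgeR). The call of MT-RNR1 was lost in 3 of the 21 fits that left out 1 library (PBS replicate 2 or 3, FWatb replicate 1). That of MT-RNR2 was lost in 10 of them (PBS 1, 2 or 3, FWctl 3 or 4, FWatb 1, 2, 3, 6 or 8) and in 4 of 11 alternative fits. The 4 were all 22 samples, library size alone, no filter on low counts and high-rDNA libraries alone, the set that holds every FWatb library. The call of MT-RNR1 was lost in 0 of these 11. MT-TP was the member higher than in PBS (0.34 ± 0.09, adjusted p = 0.011 by edgeR), without overlap, a call lost in 3 of the 21 fits and with FWctl replicate 1 included.

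The antibiotic cocktail on its own gave no call. The mRNA share was 0.769%, 0.793%, 0.848% and 0.731% in the ATB libraries, 1.00 times that of PBS, and the rRNA share was 1.01 times. In the low-rDNA libraries alone (3 ATB and 2 PBS), the mean mRNA share was 0.783% under ATB and 0.692% under PBS. There, all 13 mRNAs had log2 fold changes above 0 (median 0.29, against 0.09 over both sets). Of the 21 members, 7 had an unadjusted p under 0.05 and 0 were called by edgeR, where 0.103% of all genes were called. Over both sets, none of the 21 members passed in either direction (edgeR, where 0.255% of all genes were higher and 0.0295% lower). In that fit 2 had an unadjusted p under 0.05, and DESeq2 called 0 with 1 such p. The share of all genes with such a p is not given here. The log2 fold changes of the mRNAs ran from -0.01 ± 0.11 for MT-CO3 to 0.24 ± 0.15 for MT-ND1, and MT-CO1 gave 0.06 ± 0.11, beside -0.86 ± 0.10 under FWctl. ATB replicate 2 is the 1 high-rDNA library of its group, and it held the highest MT-RNR1 (33613), MT-ND4 (344) and MT-TC (278) of the 4 in normalized CPM.

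FWctl replicate 1 lay outside the other FWctl libraries for some members and inside them for others. Against the other 6 FWctl libraries, it was within their range for 8 mRNAs and above it for 5 (MT-CO1 at 2205, MT-CO2 at 344, MT-CO3 at 3646, MT-ND5 at 49.2 and MT-CYB at 74.1 normalized CPM). Against PBS it was below the range for 10 mRNAs and within it for 3. Its MT-TN, at 66.8, lay below the FWctl range and within that of PBS, its MT-TC, at 175, lay within both, and its MT-TP, at 88.5, lay above both.

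Among nuclear genes of mitochondrial transcription, the direction was mostly upwards under FWctl. Under FWctl against PBS, 6 of 10 genes of mitochondrial transcription were higher and 1 lower, beside 24.3% and 22.1% of all genes. In high-rDNA libraries alone the count was 4 higher and none lower, where 34.7% of all genes were called in either direction. POLRMT stood at 26.8, 25.9, 31.9 and 30.8 normalized CPM in PBS and at 49.0, 55.5 and 60.2 in FWctl, without overlap, and it rose by 0.92 ± 0.08 on the log2 scale (adjusted p = 1.7e-12 by edgeR). TFB2M stood at 15.1, 21.2, 19.98 and 20.1 in PBS and at 35.3, 40.6 and 44.6 in FWctl (1.08 ± 0.09, adjusted p = 9.0e-13 by edgeR). TFAM rose by 0.52 ± 0.07 (adjusted p = 1.2e-07 by edgeR), and TEFM, the elongation factor, did not pass (0.13 ± 0.12). Within the low-rDNA and high-rDNA sets the log2 fold changes were 0.74 and 1.04 for POLRMT, 1.02 and 1.10 for TFB2M and 0.39 and 0.55 for TFAM, and each passed in both.

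Of the genes that process, protect or degrade mitochondrial RNA, 15 of 31 were higher and 3 lower under FWctl (24.3% and 22.1% of all genes), with a median log2 fold change of 0.29. SLIRP, the partner of LRPPRC, rose most in this list, from 27.04, 24.9, 30.8 and 28.7 normalized CPM in PBS to 56.3, 62.2 and 74.6 in FWctl (1.20 ± 0.10, adjusted p = 1.7e-13 by edgeR). LRPPRC rose by 0.65 ± 0.07, and MRM1, which methylates the large rRNA, by 1.02 ± 0.14 (adjusted p = 1.1e-09 and 7.2e-08 by edgeR). GRSF1, an RNA-binding protein of mitochondrial RNA granules, went the other way (-0.49 ± 0.08, adjusted p = 3.2e-06 by edgeR). GTPBP3, a tRNA-modifying enzyme, had a log2 fold change of -0.33 ± 0.13, a call lost within either library set (adjusted p = 0.133 and 0.0872 by edgeR). Of 18 genes of mtDNA replication and upkeep, 9 were higher and 2 lower, but 4 were higher in high-rDNA libraries alone and 6 in low-rDNA ones. These 2 fits called 34.7% and 36.9% of all genes in either direction. ATAD3A, an inner-membrane protein of the nucleoid, was lower (-0.49 ± 0.11, adjusted p = 0.00045 by edgeR).

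Under FWatb against FWctl, most calls in these lists were downwards. In the transcription list 4 of 10 were lower and none higher, in the RNA processing list 14 of 31 lower and 8 higher, and in the mtDNA list 10 of 18 lower and 4 higher. Of all genes, 25.4% were lower and 23.4% higher. SLIRP fell by 0.87 ± 0.08, TFB2M by 0.69 ± 0.08 and POLRMT by 0.63 ± 0.07 on the log2 scale, each without overlap (adjusted p = 8.1e-12, 9.8e-10 and 4.7e-10 by edgeR). ATAD3A rose by 1.01 ± 0.10, GRSF1 by 0.67 ± 0.07 and GTPBP3 by 0.58 ± 0.11 (adjusted p = 2.6e-11, 1.7e-10 and 3.2e-05 by edgeR). TFAM fell by 0.17 ± 0.06 (adjusted p = 0.023 by edgeR), and the fit on high-rDNA libraries alone did not call it (adjusted p = 0.0828). Against PBS, FWatb left POLRMT (0.30 ± 0.08), TFB2M (0.39 ± 0.09), TFAM (0.35 ± 0.07) and SLIRP (0.33 ± 0.10) higher, with adjusted p of 0.012, 0.0042, 0.00073 and 0.021 by edgeR. With all 22 samples, POLRMT and SLIRP were not called (adjusted p = 0.0752 and 0.0913 by edgeR). MRM1 (0.77 ± 0.14), PUS1, a pseudouridine synthase (0.72 ± 0.15), and ATAD3A (0.52 ± 0.11) had the largest rises of the 3 lists in that comparison. ATB against PBS called none in any of the 3 lists, where only 0.285% of all genes were called in either direction. PPARGC1A, a coactivator of mitochondrial biogenesis, did not pass the count filter. Of the 9 other regulators on that list, 6 were higher and 2 lower under FWctl (24.3% and 22.1% of all genes). Within either library set 4 were higher, where 34.7% (high-rDNA) and 36.9% (low-rDNA) of all genes were called in either direction.

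**Figure D5:**
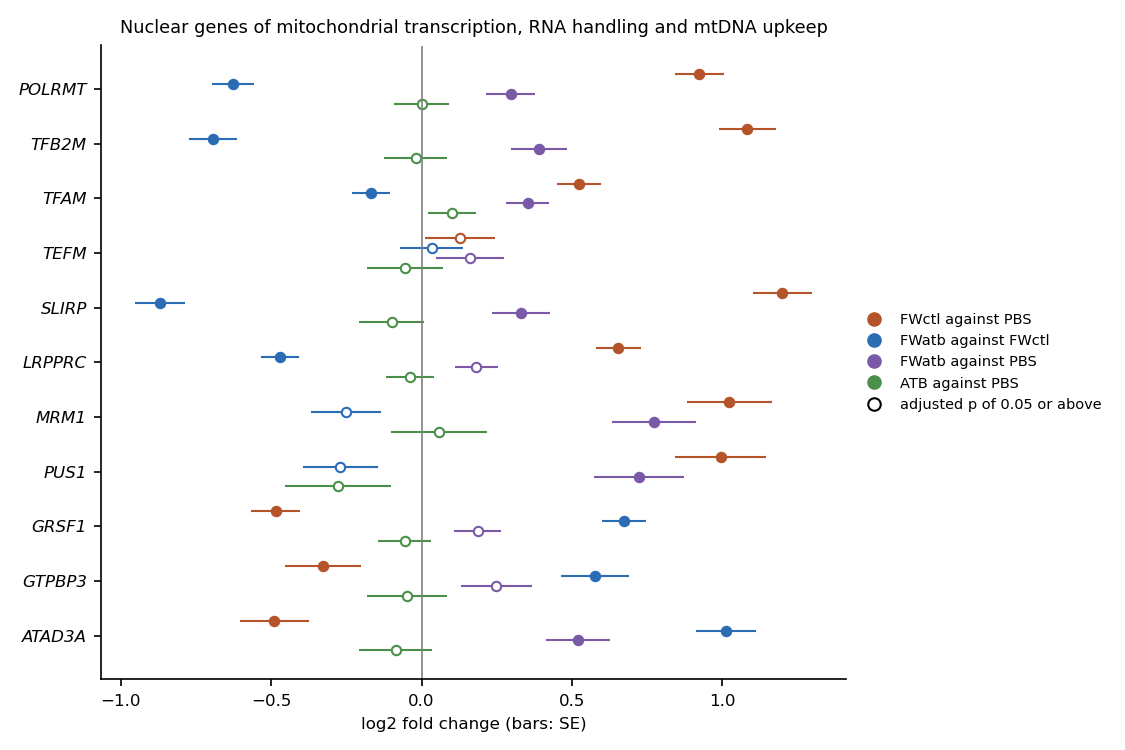
Log2 fold change of 11 nuclear genes of mitochondrial transcription, RNA handling and mtDNA upkeep in the 4 comparisons, with bars for the SE and open circles where the adjusted p was 0.05 or above. POLRMT, TFB2M, TFAM, SLIRP and LRPPRC lie right of 0 under FWctl against PBS (0.92, 1.08, 0.52, 1.20 and 0.65) and left of 0 under FWatb against FWctl.

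The nuclear-encoded subunits that join the mitochondrial ones differed by complex. Under FWctl against PBS, complex III had 6 of 9 lower and none higher, ATP synthase 12 of 18 lower and 2 higher, and complex IV 7 of 11 lower and 2 higher, where 22.1% of all genes were lower and 24.3% higher. Their median log2 fold changes were -0.38, -0.34 and -0.28. Complex I, which has most of the mitochondrial mRNAs, had 13 of 37 lower and 12 higher with a median of 0.07. In the high-rDNA libraries alone the complex I count was 7 lower and 12 higher, and in the low-rDNA ones 14 lower and 6 higher. These 2 fits called 34.7% and 36.9% of all genes in either direction. In the high-rDNA libraries, 4 complex IV and 8 ATP synthase genes were lower. Under FWatb against FWctl, complex III had 7 higher and none lower, ATP synthase 13 higher and none lower, complex IV 6 higher and 2 lower, and complex I 14 higher and 12 lower, where 23.4% of all genes were higher and 25.4% lower. Mitochondrial proteases and chaperones had 5 of 11 higher and 3 lower under FWctl, and 4 higher and 3 lower under FWatb against FWctl.

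Chromosome 1 copies were also called. Of the 4 that passed the count filter, MTATP6P1 (-0.85 ± 0.17) and MTCO1P12 (-0.65 ± 0.16) were lower under FWctl against PBS (adjusted p = 4.2e-05 and 0.00074 by edgeR), MTND2P28 and MTCO3P12 did not pass, and 3 were higher under FWatb against FWctl. Of all genes, 22.1% were lower in the first comparison and 23.4% higher in the second. None of these 3 rises was called with the library set as a covariate (MTATP6P1 adjusted p = 0.0534 and MTCO1P12 0.131 by edgeR), and 2 were in high-rDNA libraries alone. How many of their reads came from mitochondrial DNA transcripts was not tested. Markers of other cell types also moved with the groups. The 6 markers of leukocytes, fibroblasts, endothelium and liver summed to 60.8 to 91.7 CPM of the unscaled library total in PBS, 8.31 to 15.3 in FWctl, 37.8 to 69.1 in FWatb and 64.6 to 124 in ATB, and 3 of the 4 tested were lower under FWctl. ALB, albumin, had the widest range of the 6 (4.53 to 109), COL1A1 and PECAM1 were present too, and PTPRC and CDH5 were at or near 0. The part of these markers in the mitochondrial values was not tested.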

How the data were processed

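RNA of 22 Caco-2 samples was made into libraries with a stranded total RNA kit after ribosomal RNA depletion and sequenced as read pairs of 150 bases. Per the labels and methods, the authors trimmed with Trimmomatic 0.38, aligned to GRCh38 with HISAT2 2.1.0 and counted Ensembl 105 genes with featureCounts of Subread 2.0.0. The deposited values are raw counts, neither filtered nor normalized. Settings for strand, overlapping genes and reads with several matches are not given in the sources used here.

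Symbols and positions came from GENCODE 44, in which 61369 of 61487 identifiers were found. Of 186 listed genes, 175 were in the table under their symbols. All other steps were computed from the counts. The 20373 genes that exceeded a count of 5 in 3 or more of 21 samples entered a single edgeR 4.0.16 model of the 4 groups (R 4.3.3, TMM scaling). Quasi-likelihood p-values were adjusted by Benjamini-Hochberg and called under 0.05. The SE is the absolute log2 fold change divided by the square root of F. Normalized CPM are counts scaled to 1000000 per TMM-scaled library size. Nuclear copies were searched with blastn 2.17.0, in windows of 150 bases. The fit was tested on simulated data.

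Members and lists were chosen with earlier results of these data known. Named were all mRNAs, both rRNAs, the 3 highest tRNAs and those called, 7 fixed nuclear genes, the 7 copies on chromosome 1, and in each comparison the 3 largest rises and falls in 3 lists among genes averaging 50 or more normalized counts (3.98 CPM at the mean library size). Per the methods, both fluids came from the same mice, but no source used here says that equal replicate numbers mark a mouse. For same-numbered FWctl and FWatb samples, deviations from the group means correlated at 0.0898 on average (-0.00895 to 0.245, 6 pairs) and those of different numbers at -0.015. ATB and PBS samples of the same number correlated at 0.105 to 0.208 (4 pairs), all above 0.1. Those of different numbers correlated at -0.0479 on average, but ranged from -0.209 to 0.209 (12 pairs). ATB replicate 4 correlated more with PBS replicate 3 (0.209) than with PBS replicate 4 (0.169). The main fit used no pairing in any comparison, and same-numbered samples were treated as pairs only in the replicate block. The 54 replicate pairs all differed by more than counting noise (chi-square per degree of freedom of 3.61 or more). Alternatives were all 22 samples, DESeq2 1.42.0, other scalings and filters, only the groups compared, the replicate block, the library set as covariate or alone, and each sample left out.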

Additional observations from a re-analysis of the deposited data

Results flagged for a closer look

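In 96 groups of 4 to 7 samples examined (21 members and 3 shares in 4 groups), 1 sample stood apart from its group by more than the 95% critical value of Dixon's test, which chance alone gives in about 1 of 20 groups. MT-TP in FWctl replicate 3 was at 47.76 normalized CPM, and the gap to the next FWctl sample was 0.683 of the group's range.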

How the results depend on the processing

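The number of mitochondrial genes called, of 21 tested, was 12 for FWctl against PBS, 12 for FWatb against FWctl and 0 for ATB against PBS. Of all genes tested, 46.4%, 48.8% and 0.285% were called in the same order. In these 3 comparisons each alternative stayed within 1.5 times of the number of mitochondrial genes. Leaving out 1 sample gave 12 to 13, 11 to 13 and 0 in that order. For FWatb against PBS the number was 5, and it was 3 with all 22 samples, 10 without a filter on low counts, 9 with the library set as a covariate, 8 with only the groups compared, 11 in high-rDNA libraries alone and 0 to 7 when 1 sample was left out. Of all genes, 9.99% were called in the main fit of that comparison. The 5 alternatives named first called 5.98%, 4.22%, 8.48%, 11.3% and 5.31% in that order. MT-RNR2 was also called for FWatb against FWctl in high-rDNA libraries alone. The FWatb against PBS count was 2 without PBS replicate 1, 0 without PBS replicate 2 and 3 without FWatb replicate 1, and the cause was not tested. With the replicate block, which keeps only samples with a partner, the numbers were 13 for FWctl against PBS, 14 for FWatb against FWctl, 10 for FWatb against PBS and 0 for ATB against PBS. Of all genes, 38.8%, 48.1%, 15.7% and 1.57% were called in that order. Only for ATB and PBS did every same-numbered pair correlate above 0.1, and some pairs of different numbers did so too. In FWatb against FWctl, 4 of 6 FWatb samples correlated best with the FWctl sample of their own number, a hint from the data and not from the design. The block added calls of MT-ND3 in the first and of MT-ND4L and MT-RNR2 in the second. The ratio of rRNA shares of ATB to PBS was 1.01 and 0.875 in high-rDNA libraries, where ATB has 1 sample. Of 1935 alternative fold changes of the mRNAs and rRNAs, 44 lost and 47 gained a call, and no call reversed. MT-ATP8 and MT-ND6, with counts of at most 44 and 110 a library, were the mRNAs measured with the largest errors. Within low-rDNA libraries FWatb could not be compared, nor ATB within high-rDNA libraries by a test.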
